A study of Mus musculus with 4 samples.

Results

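Trophoblast is the first lineage to separate from the embryo and goes on to build the placenta. The 10 genes described here are used as its markers: Tfap2c, Eomes, Cdx2, Elf5, Gata3, Gata2, Hand1, Ascl2, Cited1 and Tpbpa. They were chosen by symbol, and each was read from a probe set that names exactly 1 gene, the one with the highest mean over the arrays where a gene had several. All 10 were found among the 22180 genes measured in this way. RNA came from retinal aggregates at day 7 (2 arrays) and at day 4 (2 arrays) of differentiation. Both days used 1 wild-type mouse embryonic stem cell line derived from EB5, of 129/Ola origin, with GFP knocked in at Rx (Rax), a gene of the eye field, and both were grown in matrigel with retinal differentiation medium. The labels do not say whether replicates were separate cultures, so the spread behind each p-value, that between these arrays, may be technical only.

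In the mouse, Cdx2, Eomes, Elf5, Tfap2c and Gata3 encode transcription factors that set up the trophectoderm of the blastocyst or keep trophoblast stem cells dividing. Ascl2, Hand1, Gata2 and the cofactor gene Cited1 act later, as these cells become spongiotrophoblast or giant cells, and Tpbpa encodes a secreted product of spongiotrophoblast. None of the transcription factors is restricted to trophoblast: Eomes also marks primitive streak and cortical intermediate progenitors, Tfap2c germ cells and some neural progenitors, Gata2 and Gata3 neurons and blood, Hand1 lateral mesoderm, and Cdx2 the posterior body.

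Values are log2 signals made with RMA (background correction, quantile normalization and probe set summary). A difference of 1 is a 2-fold difference in normalized signal, and signal left over from background makes the fold of a dim gene smaller than the true one. The array medians lay between 5.68 and 5.74 at day 7 and between 5.74 and 5.77 at day 4. As a mark of background, 1105 olfactory receptor genes, sensory genes of the nose taken as silent here, had a median signal of 3.38 and a 95th percentile of 5.23. A gene with a mean under 5.23 is called near background below, which held for 35.3% of all genes. Probe sets differ in how strongly they bind, so this places a gene against background and does not rank genes against each other.

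Of the 10 genes, 4 rose by day 7 (Tfap2c, Tpbpa, Gata2 and Cited1), 1 fell (Eomes) and 5 were not called. A call is an adjusted p under 0.05 from limma, adjusted over all 22180 genes. Over all genes 6.15% were called higher, 4.33% lower and 10.5% in either direction. The members were chosen with earlier results of these data known, so their share is given only beside that background. Their median difference was 0.53, against -0.0036 over all genes. Both day 7 values lay above both day 4 values for 6 members, where 25.6% of all genes did so, and below them for 2 members, where 25.1% did. The days overlapped for Elf5 and Gata3, and 50.8% of all genes did not overlap. In whole aggregates, fewer cells of a type and less RNA per cell cannot be told apart.

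**Figure D1:**
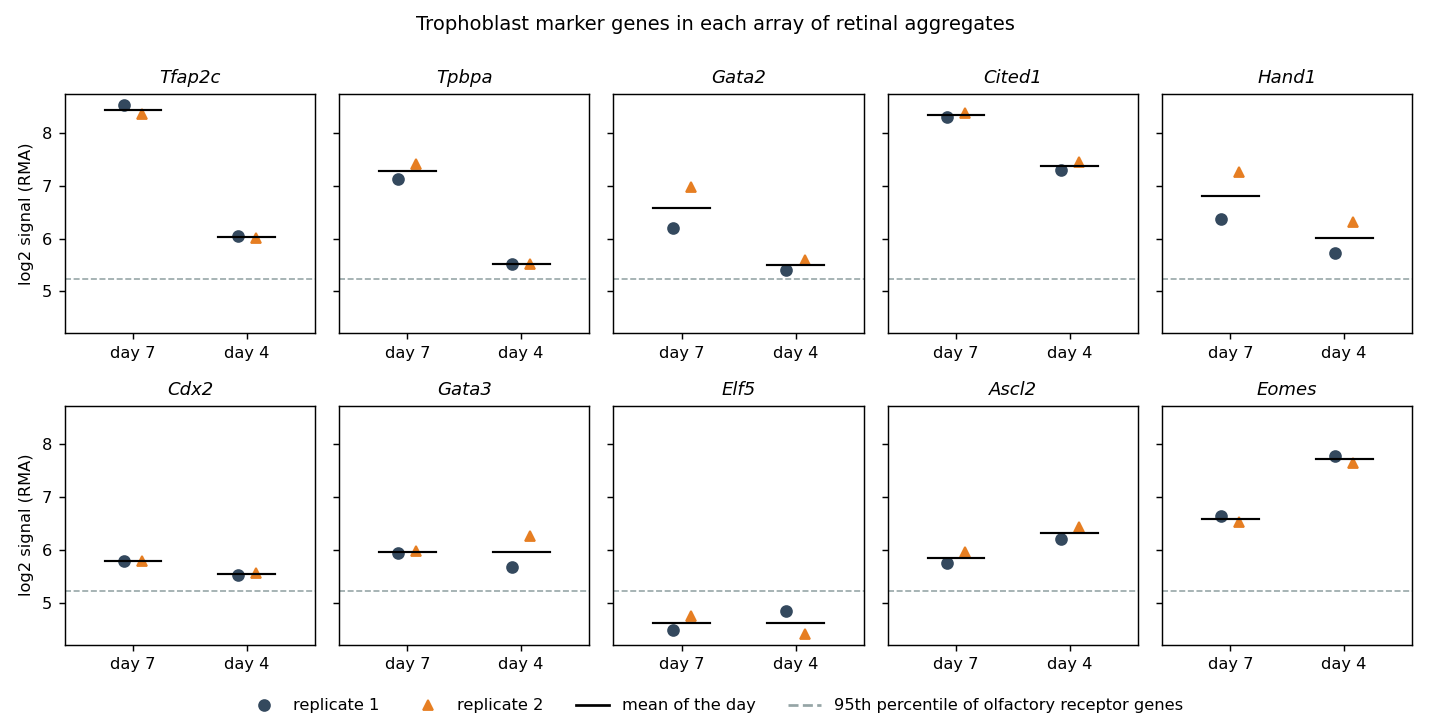
Log2 signal (RMA, y axis) of the 10 marker genes in each array, with day 7 left of day 4, replicate 1 as circles, replicate 2 as triangles and the mean of each day as a bar. The dashed line is the 95th percentile of olfactory receptor genes (5.23), and all 4 values of Elf5 lie under it.

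Promoter sequences are shown for the 4 members that passed the test and had an entry in the RefSeq promoter table (GRCm38.p6), which held 8 of the 10 members and not Tfap2c or Hand1. Each window of 300 bases runs from 250 bases before a transcript start to 50 after it, in the direction of the gene. For Gata2, which has 2 listed starts, and Cited1, which has 3, the start with an AP-2 match is shown. Capitals mark matches on either strand to GCCNNNGGC, the palindrome bound by AP-2 factors such as the product of Tfap2c, and to CCAAT, an element of many promoters. Tpbpa lies at chr13:60941887-60942186 on the minus strand, Gata2 at chr6:88198414-88198713 on the plus strand, Cited1 at chrX:102250727-102251026 on the minus strand and Eomes at chr9:118477939-118478238 on the plus strand.
Tpbpa: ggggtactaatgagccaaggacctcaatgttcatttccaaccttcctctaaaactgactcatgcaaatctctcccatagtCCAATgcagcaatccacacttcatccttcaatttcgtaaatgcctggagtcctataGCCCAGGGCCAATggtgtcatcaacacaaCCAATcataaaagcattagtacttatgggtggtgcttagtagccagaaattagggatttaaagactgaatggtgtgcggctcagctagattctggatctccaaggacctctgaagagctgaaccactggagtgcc
Gata2: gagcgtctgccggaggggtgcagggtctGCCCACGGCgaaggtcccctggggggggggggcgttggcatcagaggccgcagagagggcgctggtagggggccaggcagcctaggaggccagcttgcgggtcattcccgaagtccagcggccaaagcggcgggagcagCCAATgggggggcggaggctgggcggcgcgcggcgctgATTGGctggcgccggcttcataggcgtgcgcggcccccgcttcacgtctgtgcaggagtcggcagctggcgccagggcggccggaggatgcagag
Cited1: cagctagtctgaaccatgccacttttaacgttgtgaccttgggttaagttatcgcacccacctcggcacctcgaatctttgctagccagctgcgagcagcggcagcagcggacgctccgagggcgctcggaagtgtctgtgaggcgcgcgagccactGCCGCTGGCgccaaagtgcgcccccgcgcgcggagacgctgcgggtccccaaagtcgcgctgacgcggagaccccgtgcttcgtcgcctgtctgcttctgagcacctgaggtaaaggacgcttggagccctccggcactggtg
Eomes: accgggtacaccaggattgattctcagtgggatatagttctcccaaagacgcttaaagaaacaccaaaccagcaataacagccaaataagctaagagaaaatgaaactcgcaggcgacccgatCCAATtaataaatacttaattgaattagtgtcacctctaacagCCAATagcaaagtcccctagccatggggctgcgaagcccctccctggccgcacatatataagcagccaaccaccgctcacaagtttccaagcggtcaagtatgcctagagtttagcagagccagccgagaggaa

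Over the 12 windows of the 8 members, the AP-2 palindrome stood in 5: those of Tpbpa, Gata3 (3 matches) and Cdx2, 1 of 2 of Gata2 and 1 of 3 of Cited1. The Gata2 and Cited1 windows above were picked for holding it. It is found in 16.6% of the 32851 promoters of the table. CCAAT stood 3 times in the Tpbpa window, where 1 copy shares a base with the AP-2 match, 2 times each in those of Gata2 and Eomes, 3 times in that of Ascl2 and once each in that of Cdx2 and a further one of Cited1, and in 37.4% of all promoters. The GATA motif AGATAA, present in 11.2% of all promoters, had 0 matches in the 12 windows of the members. The E-box CAGCTG (16.3% of all) was matched in a window of Gata3, Elf5, Cdx2, Gata2 and Cited1, and the T-box motif GGTGTGA (3.98% of all) in a window of Elf5 and Gata2. The Tpbpa window had 2 CpG dinucleotides and 45.7% G and C, and the Gata2 window 29 CpG and 73.7%, against medians of 7 and 52.7% over all promoters. A match is a run of letters and shows no binding.

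Among the genes of the trophoblast stem cell, Tfap2c and Eomes moved in opposite directions. Tfap2c (probe set 17380153), which encodes AP-2 gamma, measured 8.53 and 8.35 at day 7 and 6.06 and 6.01 at day 4. Both day 7 arrays stood more than 2 log2 above both day 4 arrays. The rise was 5.32-fold, with means of 8.44 ± 0.12 at day 7 and 6.03 ± 0.03 at day 4 (SD, n = 2 per day; log2 difference 2.41, SE 0.144, adjusted p = 0.000189). Ordered from the largest rise, it stood at rank 108 of 22180 genes. Leaving out any 1 array gave a difference between 2.32 and 2.50.

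Eomes (probe set 17522876) encodes a T-box factor that trophoblast stem cells need. It measured 6.64 and 6.53 at day 7 and 7.77 and 7.66 at day 4, so both day 7 arrays were lower and the days did not overlap. The gene fell to 6.58 ± 0.08 at day 7, against 7.71 ± 0.08 at day 4 (SD, n = 2 per day), a log2 difference of -1.13 (SE 0.143, adjusted p = 0.0034). The fall was 2.19-fold and lay between -1.19 and -1.07 log2 with any 1 array left out. Of the 10 pluripotency genes of the fixed list, 5 fell and 0 rose, beside 4.33% of all genes called lower. The other 5, named after their values were seen, were not called: Nanog (-0.56), Zfp42 (-0.07), Sox2 (0.22), Tbx3 (0.335) and Klf4 (0.56). Summed over the 10 genes, the linear signal was 6842 and 7454 at day 7, against 18268 and 16715 at day 4. Among 11 measured genes of the primitive streak, 0 were called, and 2 of them were near background, with a summed linear signal of 797 and 910 at day 7 and 715 and 868 at day 4. The streak gene T was not measured. Differences in this list ran from -0.88 for Lhx1 (limma adjusted p = 0.0671), named after its values were seen, to 0.90 for Wnt3 (adjusted p = 0.0728). The part of either cell state in the fall of Eomes was not tested.

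Cdx2, Elf5 and Gata3 were not called. Cdx2 (probe set 17455307), the caudal-type homeobox gene that starts trophectoderm, measured 5.80 and 5.80 at day 7 and 5.53 and 5.56 at day 4. The day 7 arrays stood just above the day 4 arrays, by 0.25 log2 (95% interval -0.07 to 0.57, adjusted p = 0.339). Elf5 (probe set 17373739), an ETS factor gene of committed trophoblast stem cells, measured 4.47 and 4.74 at day 7 and 4.83 and 4.41 at day 4. It was the 1 member near background, all 4 of its values lay under 5.23, and the days overlapped (log2 difference -0.02, 95% interval -0.47 to 0.43, adjusted p = 0.981).

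Gata3 (probe set 17366644) encodes a zinc finger factor of the trophectoderm. It measured 5.95 and 5.98 at day 7 and 5.67 and 6.27 at day 4, and the day 7 values lay between those of day 4 (log2 difference -0.003, 95% interval -0.50 to 0.49, adjusted p = 0.998). The gap between the day 4 arrays was 0.60, larger than that of 94.5% of all genes. A second probe set naming only Gata3 (17381533) measured 5.80 and 6.15 at day 7 and 5.74 and 6.08 at day 4. A further one shared with 2 other gene names had a difference of -0.09 at a mean signal of 3.97. The interval of Elf5, whose values could not be told from background, does not bound a change in its RNA.

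**Figure D2:**
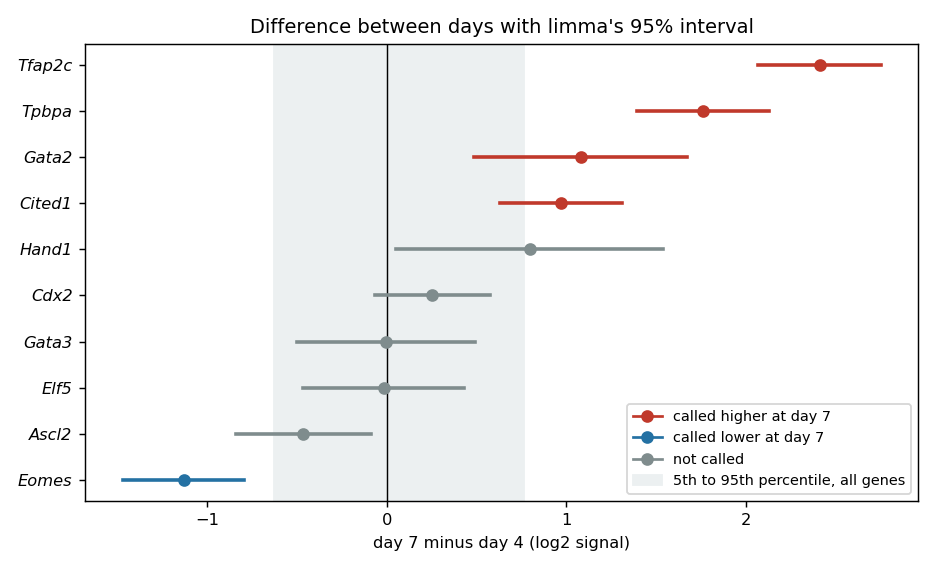
Day 7 minus day 4 difference in log2 signal (x axis) of the 10 marker genes with limma's 95% interval, red where called higher at day 7, blue where called lower and grey where not called. The band spans the 5th to 95th percentile of all genes (-0.63 to 0.77), and Tfap2c (2.41), Tpbpa (1.76), Gata2 (1.08), Cited1 (0.97) and Hand1 (0.80) lie above it and Eomes (-1.13) below.

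Of the factors of later trophoblast, Gata2 rose, and neither Hand1 nor Ascl2 was called. Gata2 (probe set 17460634), a zinc finger factor gene needed for placental hormone genes in giant cells, measured 6.20 and 6.97 at day 7 and 5.41 and 5.59 at day 4. Both day 7 arrays were higher, and replicate 2 of day 7 was the highest by far. The rise was 2.12-fold, with means of 6.58 ± 0.55 at day 7 and 5.50 ± 0.13 at day 4 (SD, n = 2 per day; log2 difference 1.08, SE 0.251, adjusted p = 0.0375). The adjusted p was 0.152 without day 7 replicate 2 (difference 0.69), 0.0962 without day 4 replicate 1, and 0.126 when all 41345 probe sets of the table were tested.

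Hand1 (probe set 17263063), a basic helix-loop-helix gene of giant cells, measured 6.37 and 7.26 at day 7 and 5.72 and 6.32 at day 4. The lower day 7 array was only just above the higher day 4 array. Means were 6.82 ± 0.63 at day 7 and 6.02 ± 0.42 at day 4 (SD, n = 2 per day; log2 difference 0.80, SE 0.315, adjusted p = 0.186, 0.0192 to 0.673 over the alternatives), and the difference was 1.24 with the lower day 7 array left out and 0.35 with the higher one left out. Replicate 2 exceeded replicate 1 at day 7 by 0.89 for Hand1 and 0.77 for Gata2, gaps larger than those of 99.5% and 99.1% of all genes. In the same 2 arrays, replicate 2 first, the summed linear signal of 9 blood and endothelial genes was 795 and 558, that of 7 melanocyte genes 2159 and 900, and that of 9 genes of lateral mesoderm and smooth muscle 2201 and 2151. In the day 4 arrays, again with replicate 2 first, these sums were 621 and 605, 400 and 428, and 1087 and 911. The melanocyte gap at day 7 lay mostly in Pmel, a pigment granule gene named after its values were seen (10.01 and 7.62 log2), and Dct (8.66 and 6.69), while Sox10 was lower in replicate 2 (7.36 and 7.94). At day 7, replicate 2 was the higher array for 11 of 11 genes of trophectoderm epithelium, with a median gap of 0.425. The same held for 9 of 13 other trophoblast stem cell genes (0.052) and 9 of 12 of the labyrinth and syncytiotrophoblast (0.355). It held for 11 of 22 genes of spongiotrophoblast and giant cells (-0.025), and the median gap of all genes was -0.014. The part of any of these cell types in Gata2 and Hand1 was not tested.

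Ascl2 (probe set 17498188), the imprinted helix-loop-helix gene of spongiotrophoblast precursors, measured 5.75 and 5.95 at day 7 and 6.20 and 6.44 at day 4. Both day 7 arrays were lower, and the gene was not called (log2 difference -0.46, 95% interval -0.84 to -0.09, adjusted p = 0.129). Cdkn1c and Phlda2, imprinted growth regulators of the placenta, had log2 differences of 0.02 (adjusted p = 0.959) and 0.41 (adjusted p = 0.544); both were named after their values were seen.

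Cited1 and Tpbpa, a cofactor gene and a product of differentiated trophoblast, both rose. Cited1 (probe set 17543664), whose protein binds the coactivators CBP and p300 and is needed in the mouse placenta, measured 8.30 and 8.38 at day 7 and 7.30 and 7.45 at day 4. Day 7 stood above day 4 by 0.97 log2, or 1.96-fold, with means of 8.34 ± 0.06 at day 7 and 7.37 ± 0.11 at day 4 (SD, n = 2 per day; SE 0.144, adjusted p = 0.00668). The size held between 0.89 and 1.05 with any 1 array left out, but the call was lost in the fits in which 1 array stood for day 7. The adjusted p there was 0.0567 when replicate 1 was left out and 0.0678 when replicate 2 was left out.

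Tpbpa (probe set 17293370) measured 7.14 and 7.42 at day 7 and 5.51 and 5.52 at day 4. The day 4 arrays were nearly identical and both day 7 arrays were far above them. The rise was 3.39-fold, with means of 7.28 ± 0.20 at day 7 and 5.52 ± 0.003 at day 4 (SD, n = 2 per day; log2 difference 1.76, SE 0.155, adjusted p = 0.000869), and it lay between 1.62 and 1.90 log2 with any 1 array left out. Its paralogue Tpbpb measured 3.41 and 2.95 at day 7 and 3.09 and 3.22 at day 4, near background in every array (log2 difference 0.03, adjusted p = 0.966). How specific the Tpbpa probes are to that gene was not tested.

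Without limma's variance prior, which pools the spread of all genes, 0 of the 10 markers and 3 of all genes passed, with 3557 genes at an unadjusted p under 0.05. For Tfap2c, Tpbpa and Eomes the call held with each array left out in turn.

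**Figure D3:**
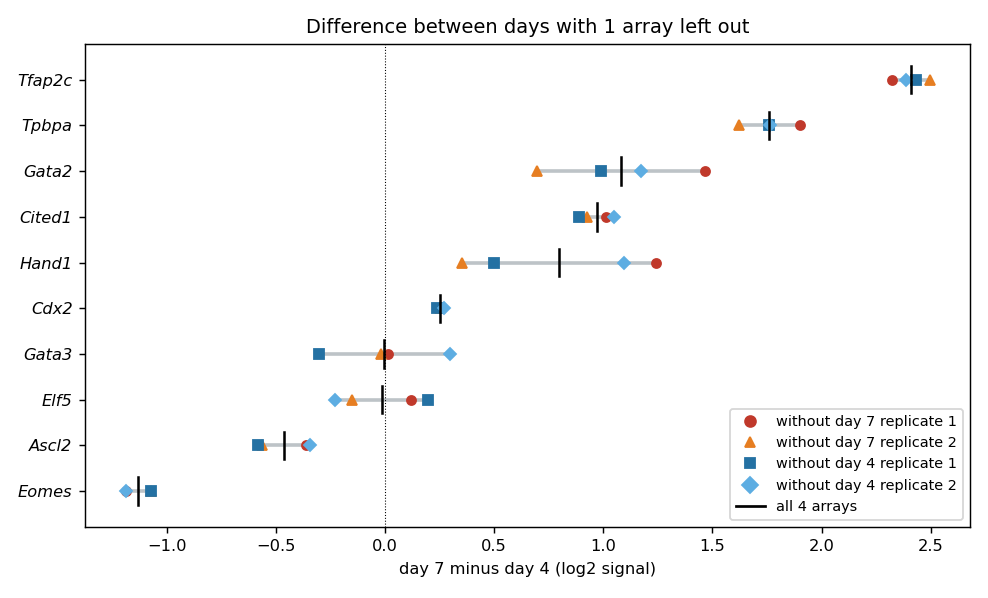
Day 7 minus day 4 difference in log2 signal (x axis) of the 10 marker genes with all 4 arrays (black bars) and with 1 array left out (symbols). The symbols lie close together for Tfap2c (2.32 to 2.50) and Eomes (-1.19 to -1.07) and far apart for Gata2 (0.69 to 1.47) and Hand1 (0.35 to 1.24).

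Beyond the 10 markers, 4 lists held 66 other genes of trophoblast, of which 58 were measured. Of these 3 rose, 4 fell and 51 were not called, with a median difference of 0.08. The share called in either direction was 12.1%, near the 10.5% of all genes. In the list of other trophoblast stem cell genes, 2 of 13 rose and 1 fell. Sox21, a Sox gene also active in neural progenitors, rose 6.38-fold (log2 difference 2.67, SE 0.180, adjusted p = 0.00031), with a difference of 1.597 log2 when its 2 probe sets were averaged. Rhox6, a placental homeobox gene on the X chromosome, rose 2.47-fold (adjusted p = 0.0461, a call lost without day 7 replicate 2 and with either day 4 array left out). Nr0b1, a nuclear receptor gene of stem cells, fell by 1.18 log2 (adjusted p = 0.015), a call lost with either day 7 array left out.

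In the list of trophectoderm epithelium, 0 of 11 rose and the claudin gene Cldn4 fell by 0.91 log2 (adjusted p = 0.0252). That call was lost without day 7 replicate 1 and without day 4 replicate 2. Among 22 measured genes of spongiotrophoblast and giant cells, Flt1, a receptor gene for VEGF, rose 2.35-fold (adjusted p = 0.0132), Nr6a1, a nuclear receptor gene, fell by 0.93 log2 (adjusted p = 0.0276), and 20 were not called. The call of Flt1 was lost without day 7 replicate 2 and that of Nr6a1 with either day 7 array left out. In that list the 17 measured genes of the placental prolactins, pregnancy-specific glycoproteins, placental cathepsins and Tpbpb were all near background, with values between 2.83 and 4.97, and 0 of them were called. The prolactin family genes Prl3d1, Prl3d2, Prl3b1, Prl2c2 and Prl2c3 of that list were not measured, so this does not cover them. Among 12 measured genes of the labyrinth and syncytiotrophoblast, the lactate transporter gene Slc16a3 fell by 1.36 log2 (adjusted p = 0.0126, and 0.0532 with day 7 replicate 1 left out) and 11 were not called.

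Of 12 defining genes of trophoblast cells, 8 were measured. Gcm1, Prl3d1, Prl3b1 and Prl2c2 were not, as no probe set named any of them alone. Among those measured, 4 are markers described above: Elf5 near background, Cdx2 not called, Eomes lower and Tpbpa higher at day 7. Syna, the syncytin-A gene of cell fusion in the labyrinth, measured 5.59 and 6.28 at day 7 and 5.08 and 5.17 at day 4 (adjusted p = 0.0737, 0.0228 to 0.335 over the alternatives). Synb measured 5.15 and 5.71 at day 7 and 5.24 and 5.65 at day 4 (adjusted p = 0.99). Plet1, a surface protein gene of trophoblast stem cells, measured 7.59 and 8.40 at day 7 and 8.65 and 8.33 at day 4 (adjusted p = 0.345), and the placental cathepsin gene Ctsq stayed between 2.99 and 3.43. The defining set had 1 gene higher, 1 lower and 6 not called. Summed, their linear signal was 602 and 824 at day 7, against 824 and 733 at day 4. The tissue label was checked on 6 measured genes of the retina and eye field, of which 3 rose (Pax6, Lhx2 and Rax) and 0 were near background. The call of Rax was lost without day 7 replicate 2 and without day 4 replicate 1.

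**Figure D4:**
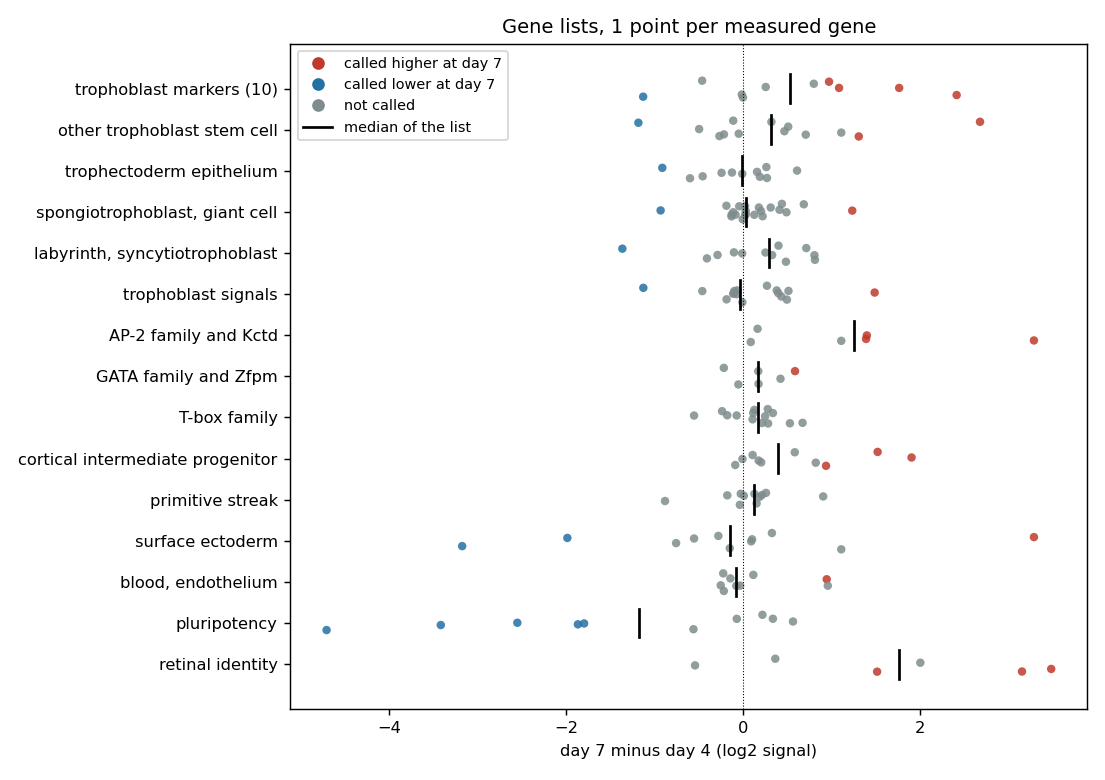
Day 7 minus day 4 difference in log2 signal (x axis), 1 point per measured gene, for the 10 marker genes and 14 gene lists, red where called higher at day 7, blue where called lower, grey where not called, with the median of each list as a bar. The medians were 0.53 for the markers, 0.32 for other trophoblast stem cell genes, 1.25 for the AP-2 list, -1.18 for pluripotency and 1.76 for retinal identity.

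Among signals that act on trophoblast, the kinase gene Lats2 of the Hippo pathway rose 2.8-fold (log2 difference 1.48, adjusted p = 0.00153) and Fgf4, the growth factor that keeps trophoblast stem cells dividing, fell by 1.13 log2 (adjusted p = 0.00624, and 0.065 with day 7 replicate 1 left out). The other 14 of 16 were not called.

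Among relatives and partners of Tfap2c, the paralogue Tfap2b and 2 Kctd genes rose. Of 4 paralogues of Tfap2c and 2 Kctd genes whose proteins bind and restrain AP-2 factors, 3 rose and 0 fell. Over all genes 6.15% were called higher, and the list was chosen with earlier results known. The median difference of the 6 genes was 1.25. Tfap2b, an AP-2 gene of neural crest and neurons, measured 8.09 and 7.84 at day 7 and 4.70 and 4.67 at day 4, a rise of 9.73-fold (log2 difference 3.28, SE 0.151, adjusted p = 9.12e-05). Kctd15 and Kctd1 rose 2.63-fold and 2.62-fold (adjusted p = 0.00304 each). Tfap2d, near background, and Tfap2e were not called, with differences of 0.16 and 0.085, and the days overlapped for both. Tfap2a measured 7.14 and 7.40 at day 7 and 5.67 and 6.66 at day 4, and was not called (adjusted p = 0.0664, 0.0019 to 0.303 over the alternatives). Summed over 11 measured genes of surface ectoderm, a tissue that also uses AP-2 genes, the linear signal was 1043 and 1108 at day 7, against 2556 and 2300 at day 4. That direction rests on Foxi3: without it the sums were 908 and 873 at day 7, against 805 and 813 at day 4. The list also holds Tfap2a and Tfap2b, and with these left out as well the 8 remaining genes summed to 495 and 475 at day 7, against 728 and 686 at day 4. These sums were added after the values were seen. In that list Tfap2b rose, Foxi3 and Grhl2 fell, and the basal keratinocyte genes Trp63, Krt14 and Krt15, named after their values were seen, were near background. The part of such cells in the AP-2 genes was not tested.

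In the GATA family list, Gata5 rose 1.5-fold (adjusted p = 0.0432), a call lost with any 1 array left out, and 5 of 6 were not called. Of 14 measured T-box genes 0 were called, and the same held for the 2 other Cdx genes, 5 genes related to Elf5 and 4 of the Cited list. The widest differences in these lists were 0.67 for Tbx15, 0.31 for Cdx1, 0.46 for Elf2 (adjusted p = 0.0831, 0.033 to 0.377 over the alternatives) and -0.26 for Ep300. Of 6 measured relatives or partners of Hand1 and Ascl2, the E-protein genes Tcf12 (1.99-fold, adjusted p = 0.00749) and Tcf4 (1.59-fold, adjusted p = 0.0256) rose. Both calls were lost with either day 7 array left out, and that of Tcf4 also without day 4 replicate 1. Of 10 genes of cortical intermediate progenitors, cells in which Eomes is known to act, 7 were not called. The days overlapped for Neurod1, Neurod2, Neurod6 and Insm1, named after their values were seen. In this list 0 fell and 3 rose, beside 6.15% of all genes called higher. These were Pou3f2 (3.74-fold, adjusted p = 0.000739), Elavl4 (2.86-fold) and Neurog1 (1.91-fold, adjusted p = 0.0369, a call lost with either day 7 array left out and without day 4 replicate 1), while Tbr1, a T-box gene downstream of Eomes in cortex, was near background with a difference of 0.11.

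The genes next to the markers along the chromosome were read as a check on regional shifts, a step chosen after the values were seen. Among 60 neighbours, 3 tested genes on each side of each marker in RefSeq order, 7 were called in either direction, beside 10.5% of all genes. Around Tpbpa, in a cluster of placental genes, 0 of 6 neighbours were called and their differences lay between -0.19 and 0.36. All 6 were near background, so these differences do not bound a change in their RNA, and the check cannot decide on a regional shift there. Next to Tfap2c, Bmp7, a bone morphogenetic protein gene, measured 9.77 and 9.95 at day 7 and 7.15 and 7.99 at day 4, and rose 4.9-fold (log2 difference 2.29, SE 0.264, adjusted p = 0.00234). On the other side of Tfap2c, Fam209 was near background, so its difference of 0.22 does not bound a change in its RNA. Next to Eomes, Itga9 and Ctdspl rose by 0.78 and 0.83 log2, against the direction of Eomes.

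**Figure D5:**
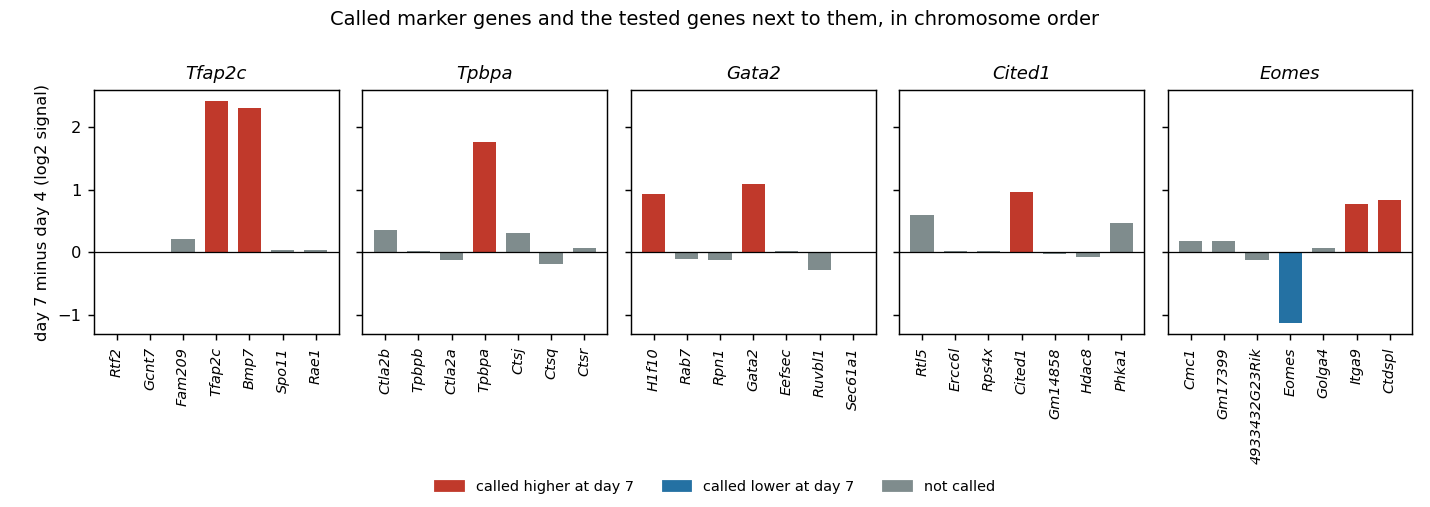
Day 7 minus day 4 difference in log2 signal (y axis) of the 5 called marker genes and the 3 tested genes on each side of each, in chromosome order and not to distance, red where called higher at day 7, blue where called lower and grey where not called. Tpbpa (1.76) stands among neighbours that were all near background, and Tfap2c (2.41) stands beside Bmp7 (2.29).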

How the data were processed

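RNA of 4 samples was measured on Affymetrix gene arrays, 1 each, and sample titles gave the day and replicate. Values are log2 signals per probe set as deposited; the submitters' processing notes name RMA and Partek 6.5, and other settings are not given in the sources used here. Of 41345 probe sets, 23521 named 1 gene, 1814 several and 16010 none here. The single-gene probe set with the highest mean was kept for each of 22180 genes. A listed gene called not measured had no such probe set, and probe sets naming several genes were not searched for it. Of the probe sets naming 1 gene, 23328 had identifiers that were found in RefSeq (GRCm38.p6), and 0 symbols changed.

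Days were compared with limma 3.58.1 (lmFit, eBayes) in R 4.3.3. Day was the sole factor, which left 2 residual degrees of freedom, with two-sided tests and Benjamini-Hochberg adjustment across all genes. Precision is limited by the number of arrays; the median SE was 0.156 log2. Tested on 10 simulated data sets of 22180 genes with 200 changed, the fit recovered 48.9% of changes of 1 log2 and 98.2% of changes of 2. The real arrays gave 2324 called genes, and the simulated spread was drawn from the fitted variance prior. These shares therefore hold for the simulated setting only.

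The members and gene lists were chosen with earlier results of these data known. In each list, up to 3 called genes with the largest rise and 3 with the largest fall were named, or the largest difference where none was called; members, defining markers, family members and eye genes could always be named. Summed linear signal is the sum of 2 to the power of each value. The alternatives tried were a block for the replicate number, each array left out in turn, repeated quantile normalization, median centring, filters on dim genes, other variance priors, other uses of probe sets and other call limits. Adjusted p ranges over alternatives do not cover the test of all probe sets or the fit lacking a variance prior.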

Additional observations from a re-analysis of the deposited data

How the results depend on the processing

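Tfap2c, Tpbpa and Eomes kept direction and call under every alternative run except the fit without a variance prior, and Cited1 also lost its call with either day 7 array left out. Gata2 lost its call without day 7 replicate 2, without day 4 replicate 1, with all probe sets and at the limit of 0.01, and was not tested above the 50th percentile of level. Of the 16 alternatives, 8 called the same number of markers as reported, 5 in all. The number of markers called higher ranged from 2 to 4 with 1 array left out. Without a variance prior, 2 genes of all were called higher and 1 lower, and 0 markers in each direction. With all probe sets of the table tested, 765 were called higher and 558 lower, and at an adjusted p limit of 0.01, 675 and 403 genes. With 1 array left out, genes called higher ranged from 573 to 1378 and genes called lower from 314 to 1122, with the fewest without day 7 replicate 1. A fit with the replicate block called 1606 genes higher and 1164 lower and 5 markers higher and 1 lower, the added one being Hand1 (adjusted p = 0.0192). Same-numbered arrays of the 2 days deviated together with r = 0.19 across genes, which are not independent, and are taken to share only a number.

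Genes that were not called and lie close to 0 changed sign. Elf5 had a difference of 0.014 after another quantile normalization and 0.026 with median centring, and -0.227 to 0.195 with 1 array left out. Gata3 had 0.024 and 0.04 under these 2 settings, 0.031 with the mean of its probe sets, and -0.302 to 0.297 with 1 array left out. Synb had 0.025 and 0.031, and -0.296 to 0.272. With 1 array left out Tpbpb ranged from -0.204 to 0.258 and Tbr1 from -0.076 to 0.288. The cause was not tested in any of these. Over the alternatives, 121 results of single genes lost a call and 24 gained one. Values under 5.23 cannot be told from background, which limits Elf5 and the placental gene clusters.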

Other observations

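Other lists of cell types that share genes with the trophoblast markers were measured as well. Of 9 genes of lateral mesoderm and smooth muscle, a setting of Hand1, 3 rose and 1 fell by day 7. Over all genes 6.15% were called higher and 4.33% lower. Bmp4 (0.27), Foxf1 (0.03), Nkx2-5 (-0.045) and Tnnt2 (-0.06), named after their values were seen, were not called, and their days overlapped. Acta2, smooth muscle actin, averaged 10.05 ± 0.075 at day 7 and 6.67 ± 0.14 at day 4 (SD, n = 2 per day), a rise of 10.4-fold (limma adjusted p = 7.89e-05). Tagln rose 2.44-fold and Isl1 2.63-fold (lost without day 7 replicate 1), and the atrial myosin gene Myl7 fell by 1.52 log2 (adjusted p = 0.00157), while Hand2, the paralogue of Hand1, was near background. Among 9 measured genes of blood and endothelium, Kdr rose 1.92-fold (adjusted p = 0.0259, a call lost without day 7 replicate 2 and with either day 4 array left out) and 8 were not called. Among 10 genes of interneurons that use Gata2, 0 were called, with the widest difference in Vsx1 (-0.59), which was near background. It was -0.08 without day 4 replicate 2, and -1.10 and called without day 4 replicate 1. Among the 11 primitive streak genes the widest difference was that of Wnt3 (0.90, adjusted p = 0.0728, 0.00308 to 0.298 over the alternatives), which was called in 5 of 11 of them.

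Of 8 genes of primordial germ cells, where Tfap2c is known to act, 1 rose (Nanos3, 1.66-fold, adjusted p = 0.04) and 2 fell, the germ cell helicase gene Ddx4 by 1.75 log2 (adjusted p = 0.00704) and Dnd1 by 0.70 log2 (adjusted p = 0.0213). All 3 calls were lost with either day 7 array left out. Of 7 genes listed for melanocytes, 3 rose and 4 were not called: Dct 6.52-fold (3.29-fold to 12.9-fold with 1 array left out, and lost without day 4 replicate 1), Sox10 3.79-fold and Mitf 2.88-fold. Of the 4 not called, Tyr and Tyrp1 were near background, Mlana had a difference of 0.065 and Pmel one of 1.93. These 4 were named after their values were seen, and 6.15% of all genes were called higher. At day 7, replicate 2 exceeded replicate 1 for 5 of the 7 melanocyte genes and for 5 of the 6 eye genes. The gap was 1.97 for Dct, 2.23 for the eye gene Six6 and -0.58 for Sox10. Which cells the signal of the listed genes came from was not tested. Among pluripotency genes the largest falls were those of Fgf5 (-4.71), Dnmt3b (-3.42) and Utf1 (-2.55).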
